A study of Mus musculus with 21 samples.

Results

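The genes described here are 10 members of the bone morphogenetic protein (BMP) pathway, taken from the deposited table by symbol: the ligands Bmp4 and Bmp7, the receptor Bmpr1a, the inhibitory SMADs Smad6 and Smad7, the inhibitors of DNA binding Id1, Id2, Id3 and Id4, and the homeobox gene Msx2. They are 10 of 20900 genes. All 10 were found, and each had a log2 value above 0 in all 21 libraries, the lowest being 0.49 for Msx2 (66 reads). The symbols were listed with results of these data known, so their values are described without p-values. Where one of the 10 is said to pass or miss the threshold used for all genes (limma, adjusted p under 0.05), this only describes how a value depends on libraries or scaling. It is not a test of that gene, and genes without such a remark were not tested either. The cells were E14 mouse embryonic stem (ES) cells, an established line of the 129 strain grown in serum with leukemia inhibitory factor (LIF). They were treated for 2, 4 or 8 h with BMH-21 or CX-5461, each at 1 µM, and control cells were taken at 0 h, which makes 7 groups of 3 libraries. Both agents block RNA polymerase I, which makes the ribosomal RNA precursor. The libraries were prepared from polyadenylated RNA, and the series compares expression with and without the inhibitors. Control cells at 2, 4 or 8 h were not analysed here, so time in fresh medium cannot be told apart from the inhibitor in any comparison with control.

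BMPs are secreted ligands of the TGF-beta superfamily. They bind a complex of type I and type II receptor kinases, which phosphorylates SMAD1, SMAD5 and SMAD9. These join SMAD4, enter the nucleus and activate targets that include the Id genes and the inhibitory SMADs, which feed back on the pathway. The Id proteins have a helix-loop-helix domain but no basic region. They pair with E proteins and keep them from binding DNA. In mouse ES cells, BMP signalling acting through Id proteins is known to support self-renewal together with LIF.

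The 4 Id genes share a conserved coding stretch, shown because it is where reads of one member would most resemble another. Each run below is 60 bases of coding sequence (GRCm38), and capitals mark the 42 bases identical in all 4 genes.
Id1, chr2:152736587-152736646, plus strand: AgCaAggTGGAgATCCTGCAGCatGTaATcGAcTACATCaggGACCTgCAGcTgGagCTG
Id2, chr12:25095774-25095833, minus strand: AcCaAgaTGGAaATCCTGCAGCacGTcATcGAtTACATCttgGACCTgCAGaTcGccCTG
Id3, chr4:136144071-136144130, plus strand: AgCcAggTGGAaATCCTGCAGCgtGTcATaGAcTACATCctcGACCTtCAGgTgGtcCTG
Id4, chr13:48261762-48261821, plus strand: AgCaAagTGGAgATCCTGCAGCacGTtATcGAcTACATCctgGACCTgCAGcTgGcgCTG
Over this window the pairs matched at 47 to 54 of 60 bases, with Id1 and Id4 most alike. The longest identical run between any pair over the whole transcripts, untranslated parts included, was 17 bases, also for Id1 and Id4. The 4 genes lie on chromosomes 2, 12, 4 and 13.

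RefSeq promoter entries (GRCm38.p6) matched 7 of the 10 genes. Over the 250 bases before the start, a script looked on both strands for GGCGCC and GCCGNCGC, which are GC-rich elements bound by BMP SMADs, for the palindrome GTCTAGAC and for the E-box CANNTG. The 2 GC-rich motifs can overlap each other. Among 32851 promoters of this length GGCGCC was present in 9.59%, GCCGNCGC in 6.89%, GTCTAGAC in 0.167% and CANNTG in 66.2%. Bmp4, the member with the largest difference from control, and Id4, the Id gene whose libraries lay on opposite sides of control with the 2 inhibitors at 2 h, are shown. Capitals mark GGCGCC and GCCGNCGC.
Bmp4, chr14:46390670-46390919, minus strand: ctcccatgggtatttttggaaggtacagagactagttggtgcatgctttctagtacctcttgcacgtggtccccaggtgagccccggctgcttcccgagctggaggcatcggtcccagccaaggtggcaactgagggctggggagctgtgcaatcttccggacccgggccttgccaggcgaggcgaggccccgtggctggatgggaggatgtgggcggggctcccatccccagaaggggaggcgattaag
Id4, chr13:48260866-48261115, plus strand: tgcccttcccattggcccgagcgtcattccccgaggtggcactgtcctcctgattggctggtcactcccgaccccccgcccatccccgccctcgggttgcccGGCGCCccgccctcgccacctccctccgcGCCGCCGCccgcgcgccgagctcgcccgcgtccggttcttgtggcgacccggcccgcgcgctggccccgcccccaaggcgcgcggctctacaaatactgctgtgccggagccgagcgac
The Bmp4 window held 3 E-boxes and neither GC-rich motif. The Id4 window held 1 GGCGCC, at position -148 from the start, and 1 GCCGNCGC, at position -119. A GGCGCC was also found for Bmpr1a and Id2, and GCCGNCGC for Bmpr1a and Msx2. The windows of Id3 and Smad6 held neither. By the GENCODE M21 annotation, the windows of Bmpr1a, Id2, Id3 and Msx2 overlapped exons, so they were not purely upstream sequence. Those of Bmp4, Id4 and Smad6 overlapped none. The GC content of the 7 windows ran from 61.6% to 78.8%, against a median of 52.4% over all promoters.

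The libraries held 46604397 to 62812641 reads assigned to genes, recovered from the deposited log2 values. One unit of log2 is a 2-fold difference, and a log2 value of 0 stands for 42 to 86 reads, depending on the library. The deposited values were scaled by factors from 0.832 to 1.375, whereas factors computed from the median gene ran from 0.941 to 1.107. The median gene of the libraries differed from control by -0.08, -0.15 and -0.21 log2 units after 2, 4 and 8 h of BMH-21 and by -0.15, -0.16 and 0.22 after 2, 4 and 8 h of CX-5461. Values are given as deposited, and "centred" marks a difference recomputed with every library centred on its median. ES cell identity was checked on 7 markers, of which all 7 passed the filter. Their summed linear level was 4470 to 5060 in control, 1680 to 1900 after 8 h of BMH-21 and 3510 to 3830 after 8 h of CX-5461. Of 7 fibroblast markers 3 passed, with summed levels of 30.5 to 34.8 in control, 43.5 to 53.4 and 38.8 to 46.5 at 4 and 8 h of BMH-21, and 33.0 to 34.9 and 43.0 to 44.3 at 4 and 8 h of CX-5461. Among them Col1a1 was at 2.97 to 3.26 (log2) in control and at 4.88 to 5.18 and 4.32 to 4.49 at 8 h of BMH-21 and of CX-5461, and Col3a1, Dcn, Lum and Postn were below the filter. The 3 did not move together. By limma (adjusted p under 0.05), 1 was higher and 1 lower than control at 4 and 8 h of BMH-21. The same held at 4 h of CX-5461, and at 8 h 2 were higher and 0 lower. The shares of all genes called are given below. Trophectoderm markers (4 of 5 passed) summed to 77.4 to 84.1 in control, 160.0 to 182.0 after 8 h of BMH-21 and 136.0 to 157.0 after 8 h of CX-5461. Mesoderm markers (4 of 4 passed) summed to 3.74 to 5.15, 9.29 to 11.3 and 7.75 to 9.29 in the same groups. Primitive endoderm markers (5 of 6 passed) summed to 15.5 to 19.0, 10.6 to 13.1 and 18.2 to 18.6. Markers within these classes did not always move together either. After 8 h of BMH-21 limma called 3 trophectoderm markers higher than control and 1 lower. The split was 2 and 1 for mesoderm and 1 and 3 for primitive endoderm. At 8 h of CX-5461 it called 4, 3 and 1 higher, and 0 lower in each class. Trophectoderm sums at 4 h lay below control (60.5 to 74.6 in BMH-21, 54.6 to 65.8 in CX-5461). There 1 marker was higher and 3 lower for either inhibitor. The part of these shifts in the results below was not tested. In bulk RNA, fewer cells of a type and less RNA per cell cannot be told apart. The labels do not say whether the 3 libraries of a group came from separate cultures, so the spread between them may be technical.

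Bmp4, a ligand that ES cells make, was far below its control level with both inhibitors at 4 h, while Bmp7 was above its own. Bmp4 (chr14:46383520-46390669, minus strand) stood at 5.33, 5.14 and 5.14 in the control libraries on the deposited log2 scale. After 2 h it was at 4.02, 4.16 and 4.22 with BMH-21 and at 4.41, 4.14 and 4.11 with CX-5461. All 6 of these libraries were below all 3 controls, and the values with the 2 inhibitors overlapped.

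After 4 h Bmp4 was at 1.49, 0.74 and 1.40 with BMH-21, which is 95 to 145 reads against 1602 to 1886 in control. With CX-5461 it was at 2.24, 2.65 and 2.26. The difference from control was -4.00 ± 0.13 (log2 fold change ± standard error of the limma fit), or 16.0-fold lower, with BMH-21 and -2.82 ± 0.13, or 7.06-fold lower, with CX-5461. Every BMH-21 library was below every CX-5461 library at this time.

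At 8 h the inhibitors parted further. Bmp4 remained at 1.67, 1.38 and 1.63 with BMH-21, a difference of -3.64 ± 0.13 from control. It was back at 4.45, 4.29 and 4.37 with CX-5461, a difference of -0.83 ± 0.13 from control and of 1.99 ± 0.13 from its own 4 h level. The 8 h values with CX-5461 overlapped those at 2 h of CX-5461 and lay above those at 2 h of BMH-21. With BMH-21 the 8 h libraries overlapped those of 4 h. Bmp4 overlaps Gm15217 on the opposite strand in exons. The kit keeps strand, but whether the counting used it is not given in the sources used here, so the share of reads from this neighbour is uncertain.

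Bmp7 (chr2:172868012-172940321, minus strand), a ligand of the same superfamily, differed from control in the other direction. It was at 1.71, 1.94 and 1.58 in control (141 to 174 reads). After 2 h it was at 2.08, 2.37 and 2.50 with BMH-21 and at 2.36, 2.13 and 2.12 with CX-5461, above all 3 controls in each case.

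At 4 h Bmp7 stood at 4.68, 4.34 and 4.41 with BMH-21 and at 3.99, 4.07 and 4.01 with CX-5461. At 8 h it was at 5.17, 4.94 and 5.24 with BMH-21 (2161 to 2650 reads) and 4.05, 3.95 and 4.04 with CX-5461. The 8 h difference from control was 3.37 ± 0.12 with BMH-21, or 10.4-fold higher, and 2.27 ± 0.12 with CX-5461, or 4.82-fold higher. Bmp7 at 8 h was 0.64 ± 0.12 above 4 h with BMH-21, with no overlap. With CX-5461 the 8 h and 4 h libraries overlapped as deposited (-0.01 ± 0.12), and the centred difference was -0.38.

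The 2 ligands can be compared within single libraries, where no scaling enters. Bmp7 minus Bmp4 was -3.46 ± 0.23 (SD, n = 3) in control. At 2 h it was -1.82 ± 0.11 in the BMH-21 libraries and -2.02 ± 0.03 in the CX-5461 libraries. At 4 h it was positive in all 6 libraries, at 3.27 ± 0.30 with BMH-21 and 1.64 ± 0.19 with CX-5461. At 8 h it was 3.56 ± 0.06 with BMH-21 and -0.36 ± 0.03 with CX-5461, so Bmp7 exceeded Bmp4 in 3 of 3 libraries with BMH-21 and in 0 of 3 with CX-5461. These differences are not corrected for transcript length. Per kilobase of exon, Bmp4 ranked 4 and Bmp7 ranked 9 of the 10 genes in control, and after 8 h of BMH-21 Bmp7 ranked 4 and Bmp4 ranked 7.

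**Figure D1:**
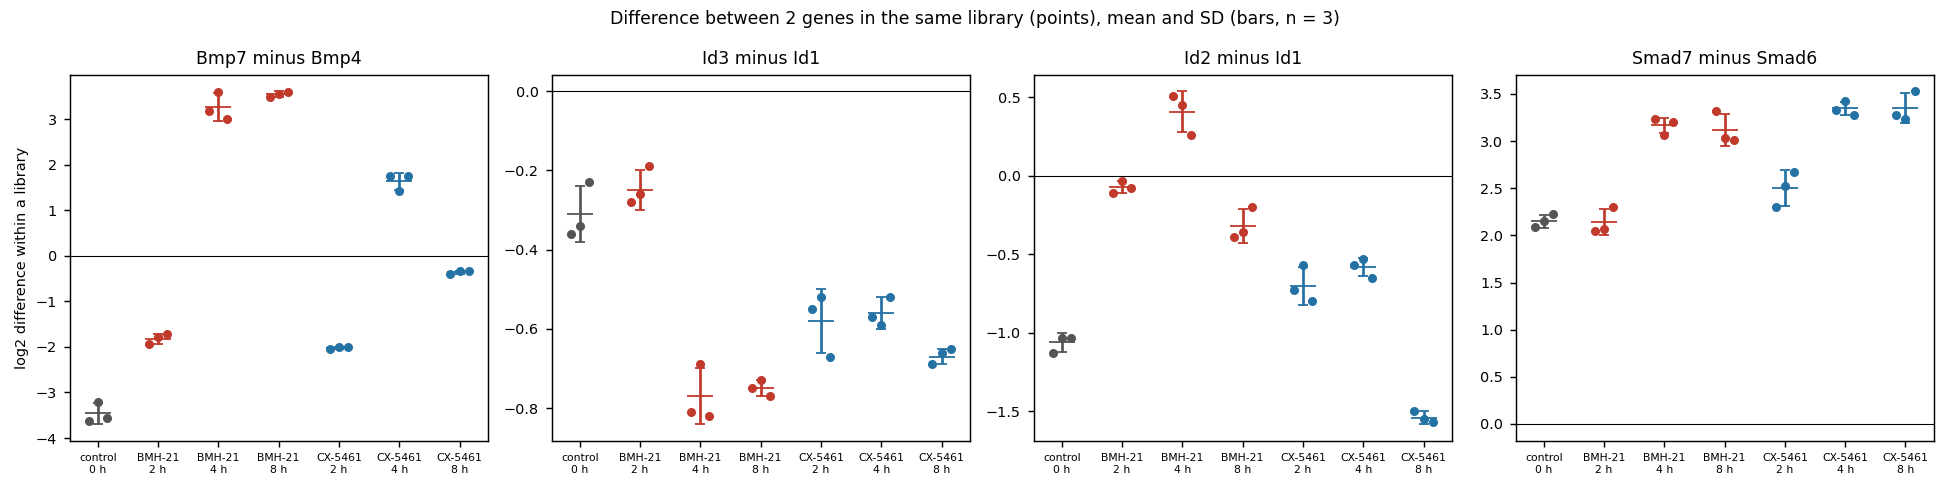
Log2 difference between 2 genes in the same library (y axis) in each of the 7 groups (x axis). Points are libraries and bars are the mean and SD of 3. Bmp7 minus Bmp4 averages -3.46 in control and, at 8 h, 3.56 with BMH-21 and -0.36 with CX-5461, while Id2 minus Id1 is highest after 4 h of BMH-21.

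Bmpr1a (chr14:34410734-34503341, minus strand), the type I receptor kinase also known as ALK3, varied little. Its group means lay between 5.58 ± 0.23 (8 h of BMH-21) and 6.16 ± 0.06 (8 h of CX-5461), with 6.04 ± 0.10 in control, and each group overlapped its neighbour in this order. The libraries at 4 and 8 h of BMH-21 and at 4 h of CX-5461 were below all controls, with differences of -0.34, -0.46 and -0.31 (each ± 0.11). Centred, these were -0.19, -0.25 and -0.16. With median-ratio factors they were -0.16, -0.10 and -0.06, and after quantile normalization -0.14, -0.10 and -0.04. The median differences over all genes, as deposited, were -0.21, -0.40 and -0.28. After 8 h of CX-5461 the difference of Bmpr1a was 0.12 as deposited and -0.10 centred. Bmpr1a overlaps Gm17110 on the opposite strand in exons, and its values carry the same uncertainty as those of Bmp4.

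Smad6 and Smad7 encode the inhibitory SMADs, which compete at receptors and recruit ubiquitin ligases, and they parted from each other. Smad6 (chr9:63953076-64022059, minus strand) is the more selective for BMP receptors. It was at 3.36, 3.24 and 3.18 in control and overlapped control after 2 h of either inhibitor. After 4 h it was at 2.54, 2.56 and 2.38 with BMH-21 and at 2.41, 2.54 and 2.46 with CX-5461, below control in all 6 libraries, and the ranges of the inhibitors overlapped.

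By 8 h Smad6 was at 1.59, 1.52 and 1.85 with BMH-21, a difference of -1.61 ± 0.13 from control, or 3.05-fold lower. With CX-5461 it was at 3.03, 2.83 and 2.77, which is -0.38 ± 0.13 from control. Its difference between 8 and 4 h of CX-5461 was 0.41 as deposited, 0.03 centred and -0.02 after quantile normalization.

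Smad7 (chr18:75367529-75395935, plus strand), which also restrains TGF-beta and activin receptors, was at 5.45, 5.39 and 5.41 in control. After 4 h it was higher in all 6 treated libraries, at 5.78, 5.63 and 5.58 with BMH-21 and at 5.74, 5.97 and 5.74 with CX-5461. The BMH-21 difference at 4 h was 0.25 ± 0.11, and it no longer passed the threshold without any 1 control library or BMH-21 replicate 1 (0.19) or 2 (0.26). At 8 h it was at 4.91, 4.55 and 4.86 with BMH-21, below all controls, and at 6.31, 6.06 and 6.30 with CX-5461, above them. The 8 h differences from control were -0.64 ± 0.11 and 0.81 ± 0.11, and centred they were -0.43 and 0.59. Within libraries, Smad7 minus Smad6 was 2.15 ± 0.07 in control. After 4 h it was 3.17 ± 0.08 with BMH-21 and 3.35 ± 0.07 with CX-5461, and after 8 h 3.12 ± 0.17 and 3.35 ± 0.16. At both times the pair was further apart than in control in every library, while at 8 h both genes lay lower with BMH-21 than with CX-5461.

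Id1 and Id3, the most abundant Id genes in control and textbook targets of BMP SMADs, were lower than control at 2 and 4 h with both inhibitors and higher at 8 h than at 4 h. Id1 (chr2:152736251-152737410, plus strand) was at 7.35, 7.31 and 7.02 in control (6158 to 7653 reads). After 2 h it was at 6.22, 6.37 and 6.15 with BMH-21 and at 6.64, 6.28 and 6.44 with CX-5461, and after 4 h at 5.75, 5.57 and 5.81 and at 6.04, 6.25 and 5.99. Each treated library at these times was below each control.

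The 4 h difference of Id1 from control was -1.52 ± 0.11, or 2.87-fold lower, with BMH-21 and -1.13 ± 0.11, or 2.19-fold lower, with CX-5461. At 8 h Id1 was at 6.74, 6.68 and 6.66 with BMH-21, a difference of -0.53 ± 0.11. With CX-5461 it was at 7.72, 7.59 and 7.58, above control by 0.40 ± 0.11. Centred, the 8 h differences were -0.32 and 0.19, and after quantile normalization the one with BMH-21 was -0.04.

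Id3 (chr4:136143497-136145755, plus strand) followed much the same course, and at 4 h it was further below its control than Id1 with both inhibitors. It was at 6.99, 6.97 and 6.79 in control. After 4 h of BMH-21 it was at 4.94, 4.88 and 4.99, a difference of -1.98 ± 0.11, or 3.94-fold lower, and after 4 h of CX-5461 at 5.47, 5.66 and 5.47, a difference of -1.38 ± 0.11.

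After 2 h Id3 had been at 5.94, 6.11 and 5.96 with BMH-21 and at 6.09, 5.76 and 5.77 with CX-5461. At 8 h it was at 5.99, 5.95 and 5.89 with BMH-21, overlapping its 2 h libraries, with a difference of -0.97 ± 0.11 from control. With CX-5461 it was at 7.03, 6.93 and 6.93, overlapping control, with a difference of 0.05 as deposited, -0.17 centred, -0.07 with median-ratio factors and 0.10 after quantile normalization. Within libraries, Id3 minus Id1 was -0.31 ± 0.07 in control and -0.77 ± 0.07 and -0.56 ± 0.04 after 4 h of BMH-21 and CX-5461.

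Id2 (chr12:25093799-25097140, minus strand) did not follow Id1 and Id3. It was at 6.22, 6.28 and 5.99 in control and, with BMH-21, at 6.11, 6.34 and 6.07 after 2 h and 6.26, 6.02 and 6.07 after 4 h, overlapping control at both times. At 8 h of BMH-21 it was at 6.35, 6.32 and 6.46, above all controls by a mean of 0.21 ± 0.11, or 0.42 centred. With CX-5461 it was lower than control in all libraries at 2 h (5.91, 5.71 and 5.64) and 4 h (5.47, 5.72 and 5.34). The 4 h difference was -0.65 ± 0.11. At 8 h of CX-5461 it was at 6.22, 6.04 and 6.01, with a difference of -0.07 as deposited and -0.29 centred. Id2 minus Id1 was -1.06 ± 0.06 in control and -1.54 ± 0.04 at 8 h of CX-5461. It was 0.41 ± 0.13 at 4 h of BMH-21, the one group where Id2 had more reads than Id1 in 3 of 3 libraries.

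Id4 (chr13:48261228-48266026, plus strand), the least abundant of the 4, split by inhibitor already at 2 h. It was at 2.68, 2.71 and 2.47 in control (262 to 300 reads). After 2 h of BMH-21 it was higher, at 3.10, 3.47 and 3.49, and after 2 h of CX-5461 lower, at 2.28, 2.17 and 2.42, with no overlap of either group with control. The differences from control were 0.73 ± 0.14 and -0.33 ± 0.14, and centred they were 0.81 and -0.19. The one with CX-5461 was short of the threshold used for all genes as deposited, centred and with median-ratio factors (-0.15). It passed with only the groups compared and without control replicate 3 (-0.41). The gap to control there was narrow, between 2.42 and 2.47.

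After 4 h Id4 was at 2.25, 1.91 and 2.09 with BMH-21 and at 1.09, 1.43 and 1.37 with CX-5461, below control in all 6. The order then turned. At 8 h Id4 was at 2.29, 2.03 and 2.24 with BMH-21 and at 3.34, 2.96 and 3.23 with CX-5461, so the 8 h level with CX-5461 was 1.88 ± 0.14 above the 4 h level. With BMH-21 the 8 h and 4 h libraries overlapped. The 8 h difference from control was 0.55 with CX-5461 and -0.43 with BMH-21 (each ± 0.14), and median-ratio factors put the latter at -0.08, while quantile normalization put the former at 0.09. Id4 overlaps A330033J07Rik and Gm49291 on the opposite strand in exons, so reads of these RNAs may be among its own.

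Msx2 (chr13:53466884-53473074, minus strand), a homeobox transcription factor and BMP target, had 63 to 218 reads per library, the lowest counts of the 10 genes. It was at 1.41, 1.29 and 1.04 in control. After 2 h it was at 0.49, 0.65 and 0.51 with BMH-21 and at 0.88, 0.86 and 0.62 with CX-5461, and after 4 h at 0.61, 0.51 and 0.52 and at 0.62, 0.76 and 0.78. Each of these libraries was below each control. At 8 h it was at 1.51, 1.07 and 1.26 with BMH-21, overlapping control, and at 1.91, 2.07 and 1.79 with CX-5461, above it by 0.67 ± 0.18, or 0.46 centred and 0.09 after quantile normalization.

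**Figure D2:**
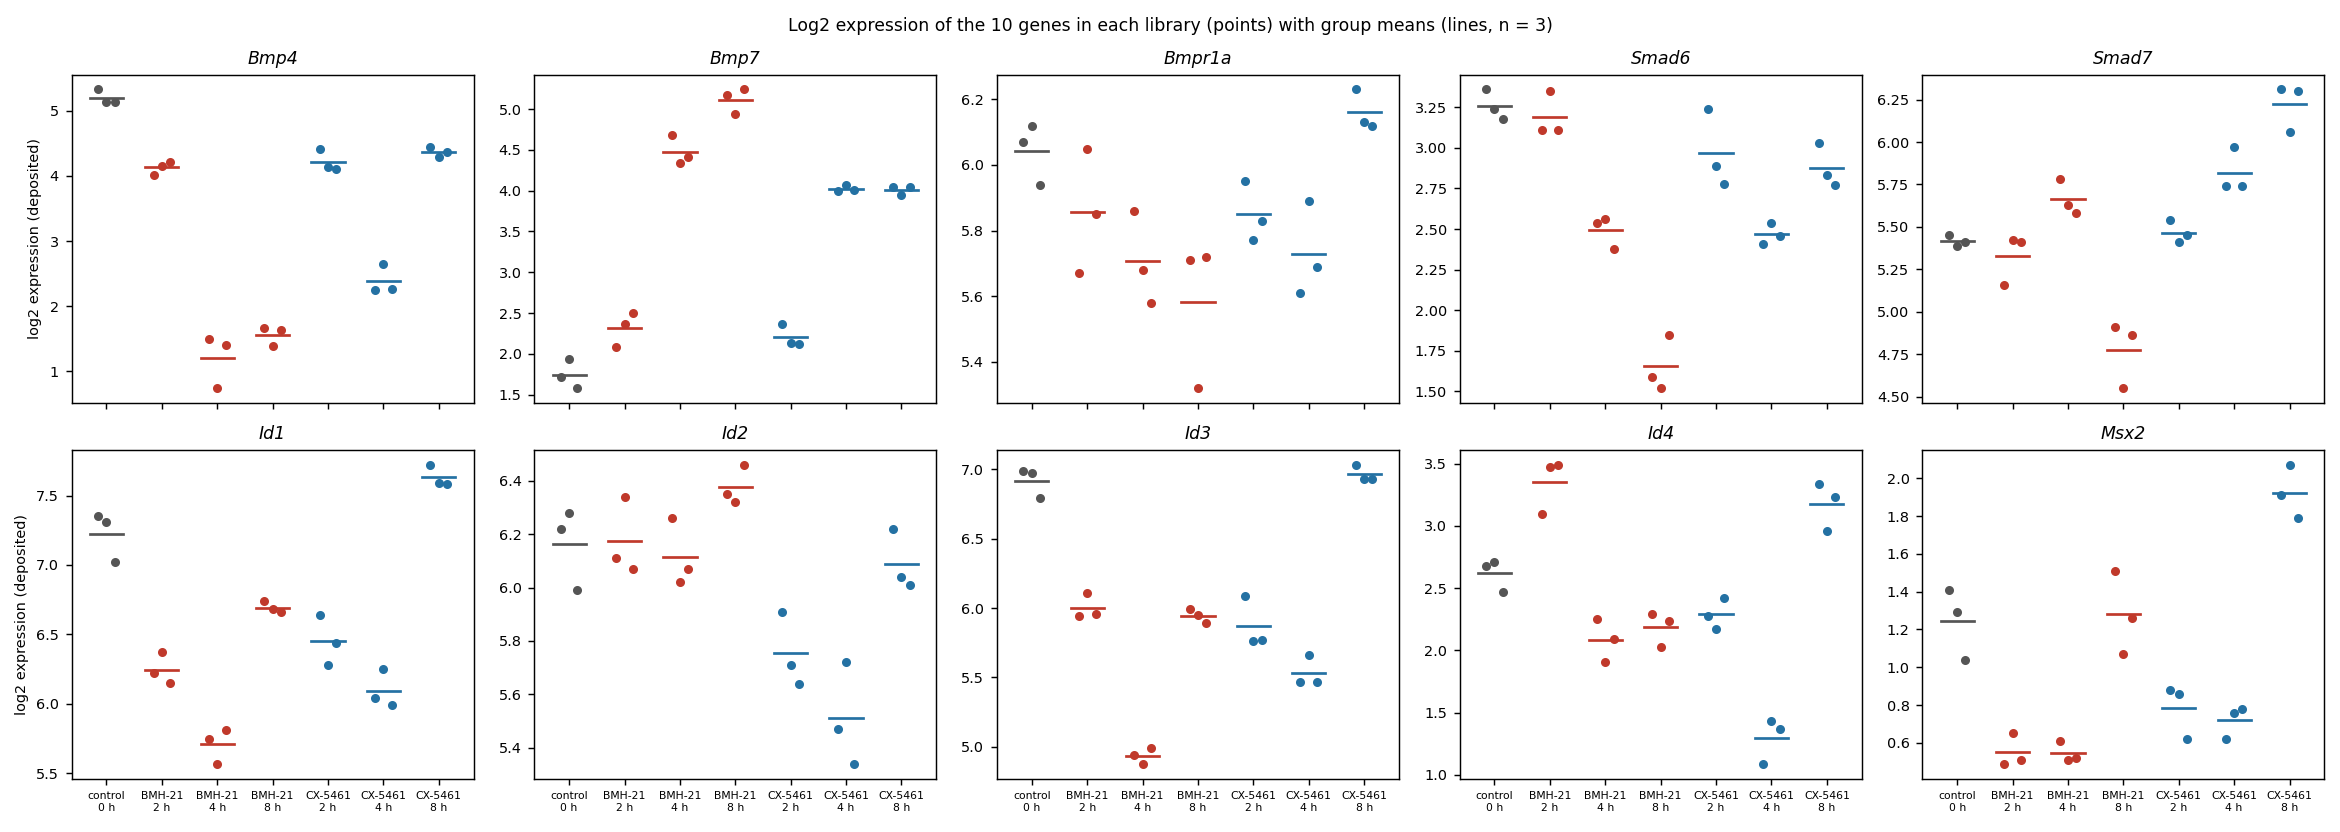
Deposited log2 expression (y axis, a separate range in each panel) of the 10 genes in the 7 groups (x axis). Points are libraries and lines are means of 3. Bmp4 averages 5.21 in control and 1.21 after 4 h of BMH-21, Bmp7 1.74 in control and 5.12 after 8 h of BMH-21, and Id1 and Id3 are lowest at 4 h of each inhibitor.

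Because lengths differ, levels of different genes are compared per kilobase of exon (GENCODE M21 exon lengths). In control the order was Id1 at 7.01 ± 0.18, Id3 at 6.08 ± 0.11, Id2 at 4.88 ± 0.15, Bmp4 at 4.04 ± 0.11, Bmpr1a at 3.38 ± 0.10, Smad7 at 3.24 ± 0.03, Smad6 at 1.58 ± 0.09, Id4 at 0.68 ± 0.13, Bmp7 at -0.26 ± 0.18 and Msx2 at -0.46 ± 0.19. Only the neighbours Bmpr1a and Smad7, and Bmp7 and Msx2, overlapped between libraries. Id1 ranked 1 and Msx2 ranked 10 in all 7 groups. After 4 h of BMH-21, Bmp4 (0.04 ± 0.41) overlapped Id4 (0.14 ± 0.17) near the bottom of the order, and Id2 (4.83 ± 0.13) stood above Id3 (4.10 ± 0.06) with no overlap. After 8 h of BMH-21, Bmp7 (3.11 ± 0.16) overlapped Bmpr1a (2.92 ± 0.23).

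The differences at matched times show where BMH-21 and CX-5461, both at 1 µM, departed from each other. At 2 h Id2 (0.42 ± 0.11) and Id4 (1.06 ± 0.14) were higher with BMH-21 without overlap, and the values of the others overlapped. The share of all genes without overlap was not computed. At 4 h Bmp4, Id3 and Id1 were lower with BMH-21, with differences of -1.18 ± 0.13, -0.60 ± 0.11 and -0.39 ± 0.11, while Bmp7 was 0.45 ± 0.12, Id2 0.61 ± 0.11 and Id4 0.78 ± 0.14 higher. Msx2 was lower without overlap as well (-0.17 ± 0.18). At 8 h Bmp7 (1.10 ± 0.12) and Id2 (0.29 ± 0.11) were higher with BMH-21. The other 8 genes were lower, by the most for Bmp4 (-2.81 ± 0.13), Smad7 (-1.45 ± 0.11) and Smad6 (-1.22 ± 0.13). The median difference over all genes was also negative at 8 h (-0.48). Centred, these were -2.38, -1.03 and -0.80, and Id4, Id3 and Id1 stood at -0.56, -0.59 and -0.51. Bmp7 was at 1.53 and Id2 at 0.71 centred. Bmpr1a went from -0.58 to -0.15 and Msx2 from -0.64 to -0.21, where it no longer passed the threshold. Id2 as deposited did not pass without BMH-21 replicate 3 (0.24) or CX-5461 replicate 2 or 3 (0.26 and 0.24).

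**Figure D3:**
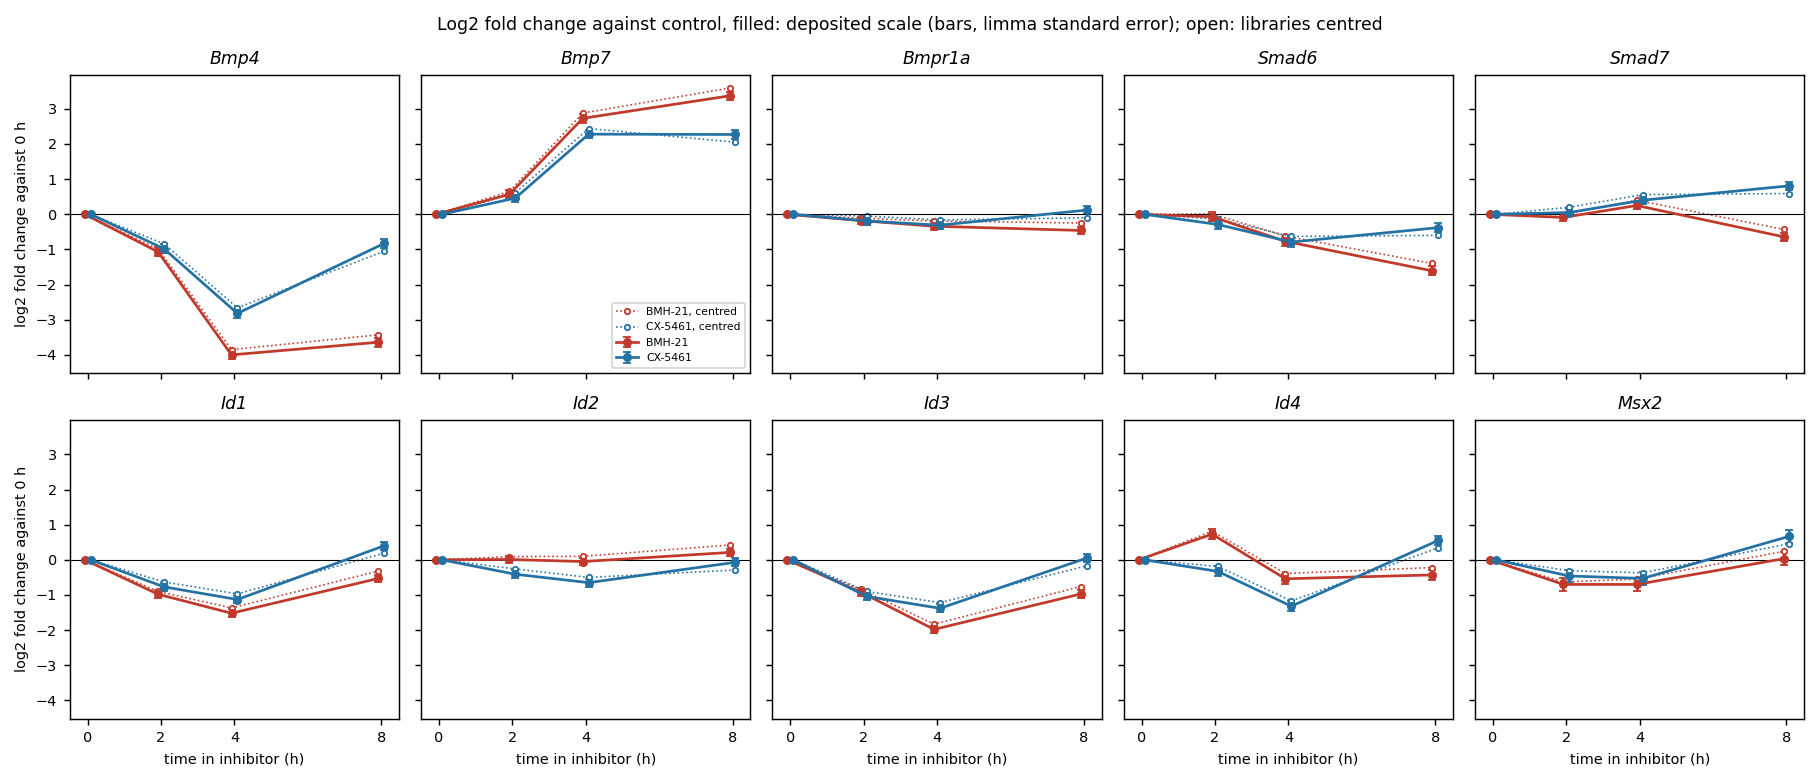
Log2 fold change against control (y axis) after 0, 2, 4 and 8 h (x axis) of BMH-21 (red) or CX-5461 (blue). Filled points with bars are deposited values with limma standard errors, open points are centred libraries, and 0 h is control by definition. The inhibitors run together at 2 h for most genes and separate at 8 h, where Bmp4 is at -3.64 with BMH-21 and -0.83 with CX-5461.

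The counts of these genes past the threshold used for all genes (limma, adjusted p under 0.05 over 14666 genes tested) are given beside the share of all genes called, and nothing is read from them since the members were chosen with results known. With BMH-21 against control, 2 of 10 were higher and 4 lower at 2 h (all genes 8.48% and 11.2%), 2 and 7 at 4 h (22.1% and 44.9%) and 1 and 7 at 8 h (24.5% and 56.9%). With CX-5461 the counts were 1 and 5 at 2 h (7.45% and 20.5%), 2 and 8 at 4 h (19.8% and 51.2%) and 5 and 2 at 8 h (35.1% and 14.3%). Centring made these 2 and 7 at 8 h of BMH-21 and 2 and 5 and 5 and 4 at 2 and 8 h of CX-5461. For BMH-21 against CX-5461 they were 2 and 0 at 2 h (2.47% and 1.52%), or 2 and 2 centred, 3 and 3 at 4 h (9.35% and 8.49%) and 2 and 8 at 8 h (12.0% and 67.2%). For 8 h against 4 h of BMH-21 they were 6 and 2 (18.6% and 37.8%), and for CX-5461 9 and 0 (58.8% and 4.85%), or 6 and 1 centred. The median change of the 10 genes was -0.62 and -0.72 at 4 h of BMH-21 and CX-5461, beside -0.21 and -0.28 over all genes, and 0.89 between 4 and 8 h of CX-5461, beside 0.34. At 2 h between the inhibitors the count was 1 without replicate 2 of BMH-21 or replicates 2 or 3 of CX-5461, each of which ended the call for Id2. In the other comparisons leaving out 1 library moved the count by at most 2. At 4 h of BMH-21 the genes higher were 1 in place of 2 without any of the libraries named for Smad7 above. They were also 1 without the variance trend, with only the groups compared and with the replicate block.

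Across the 7 group means, which share their scaling and the control, Id1 went with Id3 (Pearson r = 0.96, n = 7 groups) and with Msx2 (0.93), and hardly with Id2 (0.30). Bmp4 and Bmp7 ran opposite (-0.85). The genes most like Id1 over the 7 means, of 6592 tested genes whose group means spanned at least 1 log2 unit, were Tbcc (0.994), Tgfb1i1 (0.990) and Abca5 (0.987). After centring they were Fam76a, Tgfb1i1 and Neurog1. Tgfb1i1 was at 2.40 in control, 1.39 and 1.56 after 4 h of BMH-21 and CX-5461, and 2.07 and 2.75 after 8 h. The genes most like Bmp4 were Kctd15, Sema6c and Rrs1 (each 0.996), and after centring Sema6c, Ube2g1 and Supt20. Sema6c was at 4.46 in control, 2.38 and 2.91 after 4 h, and 2.53 and 4.18 after 8 h. With 7 points and 6592 genes searched, likeness of this size is a description only.

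The rest of the pathway was read from a list of 58 further genes, of which 39 passed the filter (log2 above 0 in at least 3 libraries) and were tested with the same fit. This list too was chosen with earlier results of these data known, and most genes named below were picked for the size of their change. Their p-values set a change against the spread between libraries and are not independent support. After 2 h, 2 rose and 3 fell with BMH-21, and 4 rose and 5 fell with CX-5461. After 4 h, 14 rose and 12 fell with BMH-21, and 15 rose and 16 fell with CX-5461. After 8 h, 15 rose and 14 fell with BMH-21, and 22 rose and 1 fell with CX-5461. Centring changed these splits to 9 and 5, 11 and 3, 19 and 11, 18 and 13, 18 and 14, and 18 and 8. The medians of the 39 at 8 h were -0.04 with BMH-21 and 0.41 with CX-5461, beside -0.40 and 0.11 over all genes tested. The shares of all genes called are those given above. Without control replicate 2 the 2 h count with CX-5461 was 4 in place of 9, and without control replicate 1 or replicate 2 or 3 of the treated group it was 5.

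Between the inhibitors, 0 of the 39 were higher and 2 lower with BMH-21 at 2 h, 6 and 4 at 4 h, and 7 and 25 at 8 h, or 2 and 5, 13 and 8, and 13 and 13 after centring. Without replicate 1 of the BMH-21 group the 2 h count was 1. Without replicate 1 or replicate 3 of the CX-5461 group the 4 h count was 6 or 4 in place of 10. At 8 h against 4 h, 8 were higher and 12 lower in BMH-21, and for CX-5461 these were 19 and 3, or 13 and 13 with each after centring.

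Of 12 other ligands only Bmp6, Bmp8a and Bmp8b were tested. As deposited none passed with BMH-21 at any time, and Bmp8b passed with CX-5461, falling by 0.41 at 4 h (adjusted p = 0.011) and rising by 0.38 at 8 h (0.027). Centred, neither passed (-0.25 and 0.16), while Bmp8a at 2 h and Bmp6 at 4 h of BMH-21 did (0.52 and 0.56). Bmp8b at 8 h was -0.11 after quantile normalization. At 4 h of BMH-21 it was -0.23 (0.16), and -0.47 (adjusted p = 0.0048) without BMH-21 replicate 1. The 4 h call with CX-5461 was lost without control replicate 3 (-0.35, adjusted p = 0.056), and the 8 h call with CX-5461 without control replicate 1 or 2 or CX-5461 replicate 2 or 3, with an adjusted p of at most 0.099. Bmp8a and Bmp8b are near-identical neighbours, so the split of reads between them is uncertain. Bmp2, the close relative of Bmp4, had at most 30 reads in any library.

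Among 9 other receptors and coreceptors, Acvrl1 rose and the coreceptors Rgma and Hjv fell at 4 h with both inhibitors. Acvrl1, the type I receptor ALK1, had a mean of 1.01 in control. It rose by 2.25 ± 0.14 and 2.19 ± 0.14 after 4 and 8 h of BMH-21 (limma adjusted p = 1.1e-30 and 5.8e-30) and by 1.75 ± 0.14 and 1.68 ± 0.14 with CX-5461 (2e-22 and 4.5e-21). At 2 h it rose by 0.72 with BMH-21 (2.1e-05) and by 0.40 with CX-5461 (0.025), the latter being 0.22 (0.19) without CX-5461 replicate 1, with the call also lost without control replicate 1 or 2. Rgma, a BMP coreceptor, fell by 2.40 ± 0.18 after 4 h of BMH-21 (1.1e-24) and by 2.24 ± 0.18 after 4 h of CX-5461 (1.9e-22). At 8 h its difference was -1.17 with BMH-21 (3.7e-09) and -0.06 with CX-5461 (0.79). Hjv, hemojuvelin, a coreceptor of the same family, had 101 to 113 reads in control. It fell by 2.47 ± 0.23 after 4 h of BMH-21 (5.3e-18) and by 1.78 ± 0.23 after 4 h of CX-5461 (3.7e-11). At 8 h it was still lower with BMH-21 (-1.93, 5.2e-13) and at 0.51 with CX-5461 (0.061). In the class as a whole, 3 rose and 5 fell at 4 h of either inhibitor.

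The SMADs that carry the signal moved modestly. Smad1 and Smad5, activated by BMP receptors, rose at 4 h, by 0.74 and 0.71 with BMH-21 (limma adjusted p = 8.6e-09 and 1.2e-08) and by 0.69 and 0.39 with CX-5461 (7e-08 and 0.0011). Smad4, the shared partner, fell by 0.34 at 4 h of BMH-21 (0.0045) and by 0.54 at 4 h of CX-5461 (8.1e-06), with a standard error of 0.11 for each of these 3 genes. At 8 h of BMH-21, Smad1 and Smad5 were up by 0.66 and 0.72 (1.1e-07 and 4.9e-09) and Smad4 was at -0.60 (4.4e-07). Smad9 passed in 1 of 6 comparisons with control, at 0.41 after 8 h of CX-5461 (0.036), with 0.19 and no call centred and -0.20 after quantile normalization, and the call was lost without 1 of 4 libraries (control replicate 1 or 2, CX-5461 replicate 1 or 2, highest adjusted p = 0.18).

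Of 16 secreted modulators 8 were tested, and at 8 h 5 rose and 2 fell with BMH-21. Bmper, a secreted BMP-binding protein, went from 8 to 12 reads in control to 184 to 277 after 8 h of BMH-21, a rise of 3.81 ± 0.32 (limma adjusted p = 1.4e-21), after 2.80 ± 0.32 at 4 h (8.6e-14). With CX-5461 it rose by 2.37 ± 0.32 at 4 h (9.3e-11) and stood at 1.12 at 8 h (0.0019), or -1.03 after quantile normalization. Twsg1, twisted gastrulation, rose by 2.19 ± 0.11 after 8 h of BMH-21 (6.1e-39) and by 1.20 ± 0.11 after 8 h of CX-5461 (2.1e-18). Fstl3, a follistatin-like antagonist of activin, rose by 1.40 ± 0.22 after 4 h of BMH-21 (9.6e-09) and by 0.79 ± 0.22 after 4 h of CX-5461 (0.00087).

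Of the 7 intracellular inhibitors, Tob1, a repressor of BMP SMAD activity, rose at every time with both agents. At 2, 4 and 8 h the rise was 0.84, 1.42 and 1.00 in BMH-21 and 0.83, 0.90 and 0.61 in CX-5461 (each ± 0.11, largest limma adjusted p = 1.3e-06). Ski, a SMAD corepressor, rose with CX-5461 by 0.93 ± 0.11 at 4 h (1.8e-13) and by 0.46 ± 0.11 at 8 h (0.00015), and was at 0.18 and 0.07 at these times with BMH-21 (0.14 and 0.56), or 0.33 and 0.28 centred, both past the threshold. Its 2 h rise with CX-5461 (0.29, 0.035) was lost without any 1 of the 6 libraries compared (0.063 to 0.085). Ppm1a, a phosphatase, fell by 0.48 and 0.76 at 4 and 8 h of BMH-21 (3.5e-05 and 1.7e-10). At 4 h of CX-5461 it was at -0.23 (0.048) as deposited, -0.07 and no call centred and 0.02 with median-ratio factors, and the call was lost without control replicate 1 or 2 or CX-5461 replicate 1 or 3 (highest adjusted p = 0.19).

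Among the other targets 5 of 7 were tested. Dlx3, a homeobox gene, rose by 0.76 at 4 h of BMH-21 (limma adjusted p = 2.4e-05) and by 0.89 and 1.21 at 4 and 8 h of CX-5461 (1.3e-06 and 2.3e-10). Msx1, the relative of Msx2, rose by 1.25 ± 0.36 after 8 h of CX-5461 (0.0021) from 17 to 32 reads in control, and was at -0.55 after 8 h of BMH-21 (0.15). Its 4 h value with CX-5461 was -0.96 (0.014), lost after centring (-0.80) and without control replicate 3 (0.079) or CX-5461 replicate 1 (0.2). Hey1 fell by 0.40 after 4 h of CX-5461 (0.015), a call lost without control replicate 1 or CX-5461 replicate 1 or 3 (highest adjusted p = 0.099) and with median-ratio factors (-0.15). It rose by 0.48 after 8 h of CX-5461 (0.0057), with -0.05 after quantile normalization. Runx2 passed at 4 and 8 h of both inhibitors but had 7 to 54 reads among the control libraries. Its rise at 4 h of BMH-21 was 1.03 ± 0.34 (0.0061) and 0.38 (0.35) without control replicate 2, which left 0.25 (0.53) and 0.23 (0.62) at 4 and 8 h of CX-5461. The latter 2 calls were also lost after centring. Dusp9, a phosphatase, fell by 0.38 after 8 h of BMH-21 (0.00068), with -0.02 and no call with median-ratio factors and 0.09 after quantile normalization.

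The E proteins, the partners that Id proteins hold back, were all 3 tested. After 8 h of BMH-21, Tcf3 fell by 1.10 ± 0.10, Tcf4 by 1.33 ± 0.12 and Tcf12 by 0.42 ± 0.12 (limma adjusted p = 2.8e-18, 2.8e-20 and 0.00083). Without replicate 2 of that group Tcf12 was at -0.25 (0.052), and with median-ratio factors it was at -0.06 and not past the threshold. At 8 h of CX-5461, Tcf3 and Tcf4 were at -0.06 and -0.24 (0.64 and 0.081) and Tcf12 rose by 0.43 (0.0014). Centred, Tcf3 and Tcf4 were at -0.28 and -0.45 there, both past the threshold, and Tcf12 was at 0.36 and past it at 4 h of CX-5461. At 4 h Tcf3 and Tcf4 fell with both inhibitors, by 0.49 and 0.45 with BMH-21 (1.7e-05 and 0.00043) and by 0.42 and 0.90 with CX-5461 (0.0002 and 1.9e-11).

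**Figure D4:**
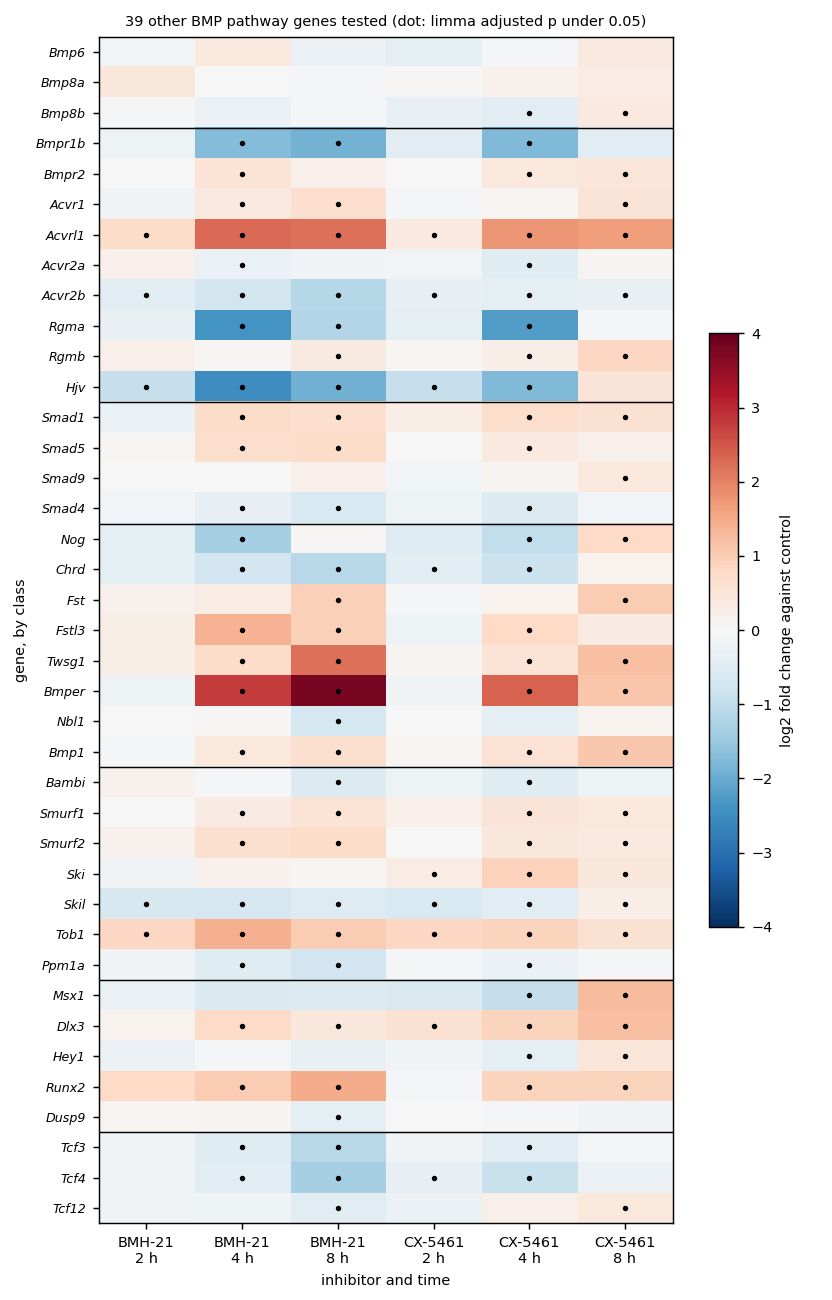
Log2 fold change against control (color) of the 39 other BMP pathway genes tested (rows, grouped by class) in 6 comparisons (columns). Dots mark a limma adjusted p under 0.05. Acvrl1, Tob1, Twsg1 and Bmper stand out as higher and Rgma and Hjv as lower at 4 h with both inhibitors, with Bmper at 3.81 after 8 h of BMH-21.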

How the data were processed

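Polyadenylated RNA of 21 libraries was sequenced with a directional kit, per the labels' protocols. The values are log2 expression per gene, normalized with voom by the authors before they were deposited, per the name of the table. The build mm10 and the tools Trim Galore 0.5.0, TopHat2 2.1.1, R 4.0.5, DESeq2 1.30.1, edgeR 3.32.1 and limma 3.46.0 are named in the submitters' processing notes, with no roles. Whether counting used strand is not given in the sources used here.

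Each value was turned back into whole reads with voom's offset of 0.5 reads (largest distance from a whole number 1.7e-08). Genes with log2 above 0 in at least 3 libraries were tested (14666 of 20900). These log2 values were fitted with limma 3.58.1 (R 4.3.3), using a mean for each group, a trended variance prior and Benjamini-Hochberg adjustment over all genes tested (threshold 0.05, two-sided), for 11 comparisons. The code was tested on simulated data. The p-values and standard errors use a spread between these libraries that is drawn strongly towards the trend over all genes. The prior had 111.5 degrees of freedom, beside 14 from each gene's own libraries. The spread used was 0.16 for Bmp4 (own SD 0.21) and 0.22 for Msx2 (own SD 0.14).

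The members and lists were chosen with earlier results of these data known. Named pathway genes were, per class, the 3 with the largest change against control among those past the threshold, or all where 5 or fewer passed. Hjv is listed under its older symbol. Alternatives were median centring, median-ratio factors, quantile normalization, other filters and floors, only the groups compared, a replicate block and leaving out each library.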

Additional observations from a re-analysis of the deposited data

Results flagged for a closer look

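Each value here is BMH-21 minus CX-5461 in log2 units, with limma's adjusted p, for a pathway gene that differed between the inhibitors at the same time. At 2 h these were Ski (-0.42, 0.0078) and Smad1 (-0.51, 0.0013). The call for Ski was lost without BMH-21 replicate 1 (-0.33, 0.087) or CX-5461 replicate 1 (-0.38, 0.05).

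At 4 h Tob1 (0.52, 0.00019), Acvrl1 (0.50, 0.0061), Fstl3 (0.61, 0.036), Tcf4 (0.46, 0.0022) and Smad5 (0.32, 0.034) were higher with BMH-21. Ski (-0.75, 1.6e-08), Hjv (-0.69, 0.028) and Tcf12 (-0.35, 0.025) were lower. Without CX-5461 replicate 3, Acvrl1 (0.41, 0.078) and Tcf4 (0.36, 0.058) lost the call. Tcf12 lost it without BMH-21 replicate 3 (-0.23, 0.24) or CX-5461 replicate 2 (-0.25, 0.15). Fstl3 lost it without replicate 1 or 3 of either inhibitor (highest adjusted p = 0.16), Smad5 without BMH-21 replicate 1 or 2 or CX-5461 replicate 1 or 3 (0.22), and Hjv without replicate 1 or 2 of either inhibitor (0.21).

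At 8 h Bmper (2.70, 5.1e-13), Twsg1 (0.99, 3.4e-14), Fstl3 (0.61, 0.0082), Smad5 (0.52, 1.6e-05), Acvrl1 (0.51, 0.00066) and Tob1 (0.39, 0.001) were higher with BMH-21. Hjv (-2.44, 1.6e-17), Msx1 (-1.80, 4.2e-06), Rgma (-1.10, 3.1e-08), Tcf4 (-1.09, 5e-15), Tcf3 (-1.04, 2.5e-16), Tcf12 (-0.85, 3.1e-10), Hey1 (-0.78, 2.6e-06), Dlx3 (-0.76, 2.2e-05), Ppm1a (-0.70, 3.7e-09), Smad4 (-0.50, 2.2e-05), Bmp8b (-0.45, 0.0041), Ski (-0.39, 0.00064) and Dusp9 (-0.25, 0.028) were lower, but centring left Ski (0.04), Smad4 (-0.07) and Bmp8b (-0.02) short of the threshold and gave Dusp9 the opposite sign (0.18). Dlx3 was short of it with median-ratio factors (-0.29). Fstl3 lost the call without replicate 3 of BMH-21 (0.42, 0.11) or of CX-5461 (0.44, 0.092), Bmp8b without BMH-21 replicate 2 (-0.29, 0.069), and Dusp9 without BMH-21 replicate 2 or CX-5461 replicate 1 or 3 (highest adjusted p = 0.16).

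For some of the 10 genes themselves, every library with one inhibitor lay above every control and every library with the other below. The share of all genes that do so was not computed. The differences between the inhibitors are given without p-values, as for all 10 genes. The cases were Id4 at 2 h (1.06), Id1 at 8 h (-0.93), Id4 at 8 h (-0.99) and Smad7 at 8 h (-1.45). For Id4 at 2 h of CX-5461 the difference from control was -0.33, short of the threshold used for all genes.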

How the results depend on the processing

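For the 10 genes, 1546 of the values recomputed under an alternative stayed within the spread between replicates, 213 moved by more, and 1 of those past the threshold as deposited changed sign (Smad6 between 8 and 4 h of CX-5461, -0.02 after quantile normalization). Differences short of the threshold also changed sign, among them Bmpr1a (0.12 to -0.10 centred) and Id3 (0.05 to -0.17 centred) at 8 h of CX-5461, Id2 at 4 h of BMH-21 (-0.05 to 0.10 centred) and Msx2 at 8 h of BMH-21 (0.03 to -0.27 after quantile normalization). For the named pathway genes 1464 kept their call, 141 lost it and 20 changed sign. Centring, median-ratio factors, quantile normalization and the replicate block with centring gave 14, 14, 14 and 14 pathway genes past the threshold in place of 5 at 2 h of BMH-21, 14, 15, 14 and 14 in place of 9 at 2 h of CX-5461, 7, 6, 7 and 7 in place of 2 between the inhibitors at 2 h, and 21, 19, 19 and 21 in place of 10 at 4 h, where fitting only the groups compared gave 5. The variance prior had 111.5 degrees of freedom as deposited and 8.5 centred. The cause was not tested.

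Signs turned under the same 4 settings for Ski (0.04, 0.08, 0.05 and 0.04) and Dusp9 (0.18, 0.23, 0.21 and 0.18) between the inhibitors at 8 h. With median-ratio factors they turned for Ppm1a at 4 h of CX-5461 (0.02) and Bmp8b between the inhibitors at 8 h (0.02). After quantile normalization they turned for Ppm1a at 4 h of CX-5461 (0.12), Runx2 at 4 and 8 h of CX-5461 (-0.06 and -0.71, or -0.07 and -0.07 with low values floored), Bmper (-1.03), Hey1 (-0.05), Smad9 (-0.20) and Bmp8b (-0.11) at 8 h of CX-5461, and Dusp9 at 8 h of BMH-21 (0.09). The cause was not tested.

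Leaving out 1 library gave 4 to 6, 24 to 26 and 28 to 29 pathway genes at 2, 4 and 8 h of BMH-21, 4 to 8, 28 to 29 and 18 to 22 with CX-5461, 1 to 3, 4 to 9 and 27 to 32 between the inhibitors, and 16 to 20 and 21 to 24 for 8 h against 4 h.

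Replicate numbers did not pair the samples: 1 of 63 correlations between same-numbered libraries was over 0.1 (lowest -0.25, highest 0.11), and 4 of 21 libraries correlated best with their own number. Between libraries of different groups and numbers, 14 of 126 correlations were over 0.1 (highest 0.38). What these libraries share beyond the number was not tested. The fit with the replicate block gave 5, 25 and 29 pathway genes with BMH-21, 9, 30 and 23 with CX-5461, 2, 10 and 31 between the inhibitors, and 18 and 21 for 8 h against 4 h, all within 1.5 times the counts without it. Msx2 and the low-count genes Msx1, Runx2 and Bmper are limited by their reads.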

Other observations

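Of the 58 other pathway genes 19 did not pass the filter. Gdf6, a BMP-family ligand singled out after its values were seen, had 0 to 9 reads in control, 41 to 77 after 8 h of BMH-21 and 1 to 10 after 8 h of CX-5461. Gdf7, another ligand of the family, had at most 66 reads in any library, and Tll1, a protease that cleaves the BMP antagonist chordin, at most 60.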
